A study of Mus musculus with 12 samples.

Results

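The 10 genes described here encode elastic fibre proteins of the aortic wall, namely elastin (Eln), the fibrillins (Fbn1, Fbn2), the microfibril-associated glycoproteins (Mfap2, Mfap5), Emilin1, and the fibulins (Fbln1, Fbln2, Efemp2 and Fbln5; Efemp2 encodes fibulin-4). Members were taken by gene name from the non-control probes of the array, whatever their values, and they were 10 of 34796 gene names. They held 15 probes, and 13 of these, for 9 genes, were bright enough to be tested among 27801 tested probes.

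Elastic fibres give the aorta its recoil. They consist of a core of crosslinked elastin on a scaffold of microfibrils that are built from fibrillins and carry the microfibril-associated glycoproteins. Fibulin-4 and fibulin-5 bring the elastin precursor to the scaffold and to lysyl oxidases, the enzymes that crosslink it, while emilin-1 and the other fibulins bind at or near the fibre surface. In the aorta, smooth muscle cells and fibroblasts make most of these proteins.

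Aortic RNA of 12 male C57BL/6J mice, 3 per group, was measured at day 3, each mouse on its own array. The DMSO group received only the vehicle of the drug, and the rapamycin group received 2 mg/kg/day of rapamycin, which inhibits the kinase mTOR. The BA+DMSO group received beta-aminopropionitrile (BAPN) at 150 mg/kg/day, which blocks lysyl oxidases, and angiotensin II (AngII), a vasoconstrictor hormone, at 1 µg/kg/min, together with vehicle. The BA+rapamycin group received the same challenge with rapamycin. No group was without vehicle, and no group received BAPN or AngII by itself, so that their parts in the challenge cannot be told apart. The titles of the DMSO samples name them as a state before the challenge, whereas the series record describes DMSO alone at day 3. The array measured a piece of the whole vessel wall.

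A level is given on each array as log2 of the signal minus that array's 75th percentile, in the order of replicates 1, 2 and 3. Levels of different probes are not comparable. A gene was called when its adjusted p, from limma with Benjamini-Hochberg adjustment over all tested probes, was under 0.05. The 75th percentile of the signal, a measure of brightness, was 221.5 to 337.3 intensity units on the unchallenged arrays and 74.62 to 246.4 on the challenged ones. All 3 DMSO arrays and rapamycin replicate 1 lay on 1 slide and the other 8 arrays on another. Rapamycin could therefore be compared under challenge within a slide, while slide and challenge could not be separated between DMSO and BA+DMSO. BA+DMSO replicate 2 was the dimmest of its group, with a brightness of 78.07 against 132 and 246.4. It correlated across probes at 0.953 and 0.912 with replicates 1 and 3, which correlated at 0.961 with each other. Replicates of BA+rapamycin correlated at 0.974 to 0.982, and those of the unchallenged groups at 0.987 to 0.993. The tissue label was checked with 10 contractile smooth muscle markers, including Myh11 and Acta2, and all of them were bright enough to be tested. This check cannot tell the aorta from other tissue that holds smooth muscle.

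The challenge was the comparison of BA+DMSO with DMSO. Fbln2, a fibulin that binds fibrillin and elastin precursor in the vessel wall, was the 1 member called, and it rose 3.72-fold. Over all tested probes, 20.5% were called in this comparison, 9.65% higher and 10.8% lower, so that 1 of 9 members was not more than the background. In BA+DMSO 8 members had a higher mean than in DMSO and Fbln5 had a lower one. The median difference of the members was 0.39 on the log2 scale, beside -0.045 for all tested probes. In a piece of vessel wall, fewer cells of a type and less RNA per cell cannot be told apart.

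Fbln2 read 4.12, 4.29 and 4.65 in DMSO and 4.86, 4.93 and 4.15 in rapamycin. It read 6.65, 6.28 and 5.82 in BA+DMSO and 7.18, 7.05 and 7.03 in BA+rapamycin. Every challenged array lay above every unchallenged array, and every BA+rapamycin array lay above every BA+DMSO array. The challenge difference was 1.90 on the log2 scale (SE 0.26, 95% interval 1.32 to 2.48, adjusted p = 0.00121). Under rapamycin the challenge difference was 2.44 (95% interval 1.86 to 3.02, adjusted p = 0.000216), a 5.42-fold rise. Between the challenged groups, BA+rapamycin was higher by 0.83 (95% interval 0.25 to 1.42), which was not called (adjusted p = 0.152). With slide as a fixed block the challenge difference was 2.22 and its call was lost (adjusted p = 0.16), whereas within the slide that held 3 groups the difference under rapamycin was 2.54 and called (adjusted p = 0.00871). Fbln2 was therefore the member with a called difference in both challenge comparisons, which use separate arrays.

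**Figure D1:**
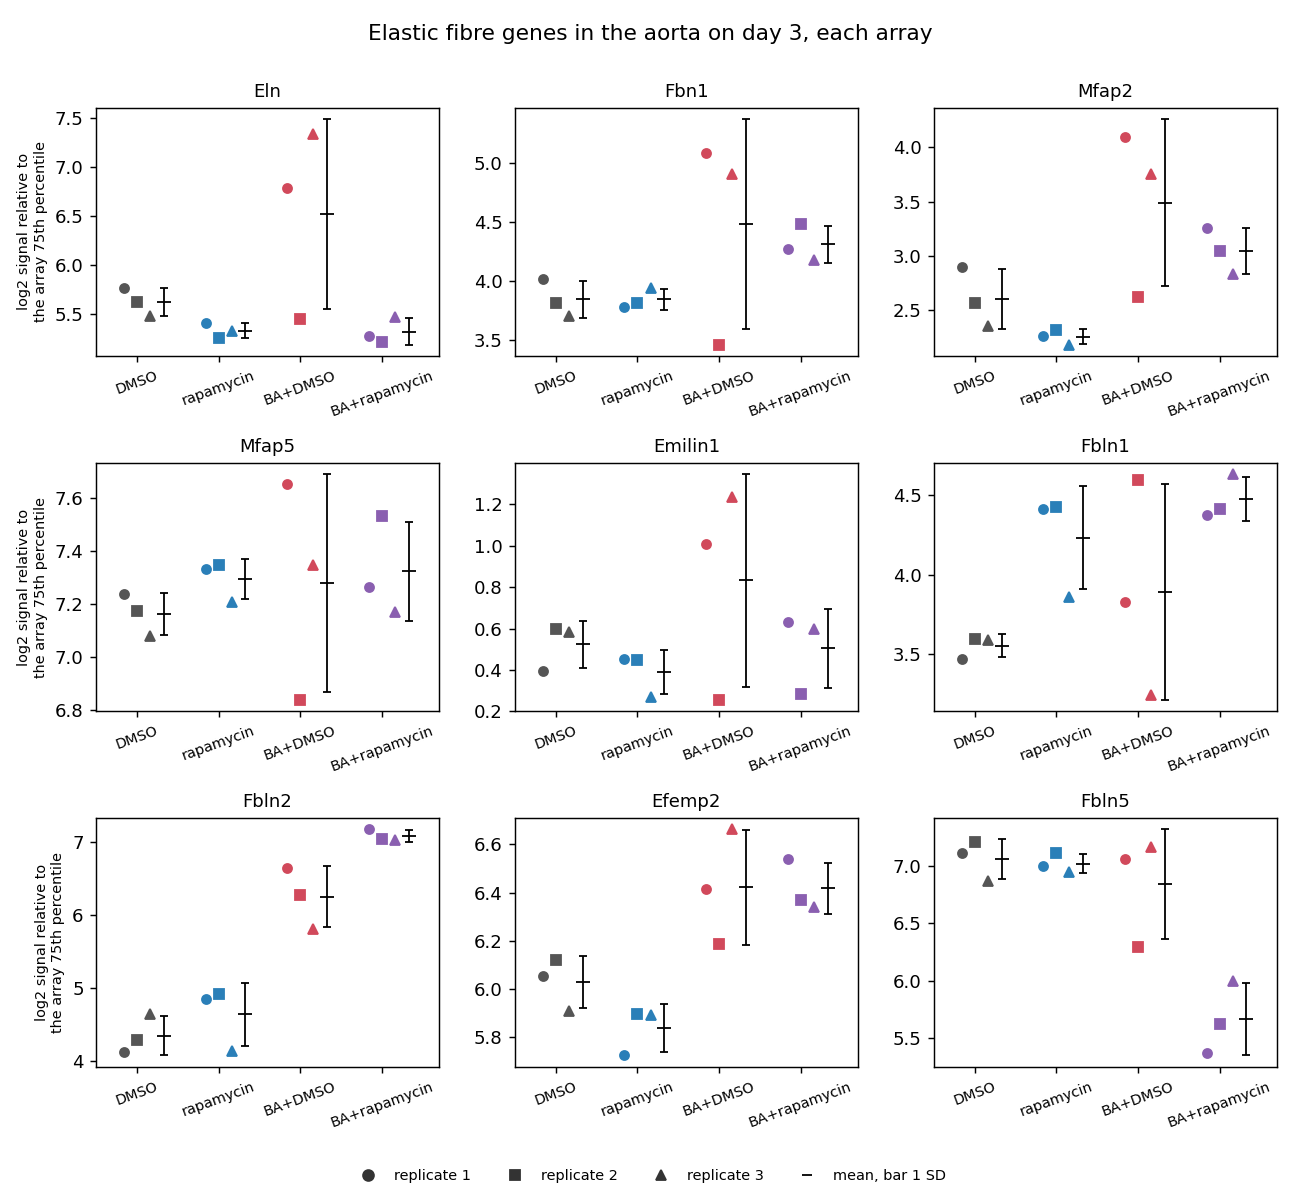
Level of each tested elastic fibre gene (log2 signal relative to the array's 75th percentile, one panel and one scale per gene) on the 12 arrays, by group; circles, squares and triangles are replicates 1, 2 and 3, and the bar is the mean with 1 SD (n = 3). Fbln2 is higher on all challenged arrays, Fbln5 is lowest on the 3 BA+rapamycin arrays, and BA+DMSO replicate 2 is the lowest of its group in 7 of the 9 panels.

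Elastin, the core protein, was high on only part of the challenged vehicle arrays. Eln read 5.77, 5.63 and 5.49 in DMSO, 5.41, 5.26 and 5.33 in rapamycin, 6.79, 5.45 and 7.34 in BA+DMSO, and 5.28, 5.21 and 5.48 in BA+rapamycin. BA+DMSO replicates 1 and 3 lay above all other arrays, and replicate 2 lay among the BA+rapamycin values. The group means differed by 0.90 for the challenge (SE 0.37, 95% interval 0.086 to 1.71, adjusted p = 0.108). For rapamycin under challenge the difference was -1.20 (95% interval -2.01 to -0.39, adjusted p = 0.144), and neither was called. The challenge under rapamycin left a difference of -0.0091 (95% interval -0.82 to 0.80, adjusted p = 0.986). This difference changed direction in 11 of 30 alternatives, and with array brightness as a covariate it was 1.50 and called (adjusted p = 0.0357). Brightness did not overlap between these groups, at 74.62 to 109.3 on BA+rapamycin and 257.4 to 337.3 on rapamycin arrays. Brightness and challenge therefore cannot be told apart between them. The SD of the BA+DMSO group was 0.97, beside 0.074 to 0.14 in the other groups, and it entered the pooled variance of every comparison.

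The microfibril genes Fbn1, which encodes the main fibrillin of the adult aorta, and Mfap2, which encodes the glycoprotein MAGP-1, were each other's nearest member. The root mean square difference of their levels over the 12 arrays, each centred on its DMSO mean, was 0.255 on the log2 scale, and no other pair of members was nearer. Over all gene names, 101 probes were nearer to Fbn1 than Mfap2 was, and 26 were nearer to Mfap2 than Fbn1 was. Fbn1 read 4.01, 3.81 and 3.71 in DMSO, 3.78, 3.81 and 3.94 in rapamycin, 5.08, 3.46 and 4.91 in BA+DMSO, and 4.27, 4.48 and 4.18 in BA+rapamycin. Mfap2 read 2.90, 2.57 and 2.35 in DMSO, 2.26, 2.32 and 2.18 in rapamycin, 4.10, 2.62 and 3.76 in BA+DMSO, and 3.26, 3.05 and 2.83 in BA+rapamycin. Both were highest on BA+DMSO replicates 1 and 3, and on replicate 2 Fbn1 lay below all DMSO arrays and Mfap2 among them. All BA+rapamycin arrays lay above all rapamycin arrays for Fbn1 and for this Mfap2 probe.

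For the challenge, the difference was 0.64 for Fbn1 (95% interval -0.12 to 1.40, adjusted p = 0.212) and 0.89 for Mfap2 (95% interval 0.18 to 1.60, adjusted p = 0.0739). Under rapamycin the challenge differences were 0.47 (adjusted p = 0.287) and 0.79 (adjusted p = 0.0679) in the same order, so that neither gene was called. Mfap2 gained a call in 7 of 29 alternatives for the challenge and in 8 of 30 under rapamycin, and Fbn1 in 2 and 3. A second Mfap2 probe, at chr4:140570920-140570979 (mm9, plus strand), gave the same order of BA+DMSO arrays, with 0.99, -0.90 and 0.81 against -0.096, -0.80 and -0.79 in DMSO. Its challenge difference was 0.86 (adjusted p = 0.167), close to the 0.89 of the first probe. Under rapamycin it read -0.68, -0.34 and -0.27 with the challenge and -0.77, -0.63 and -0.53 without, so that these groups overlapped, and the difference was 0.21 (adjusted p = 0.70). The array's annotation starts the probes at bases 1008 and 432 of the same transcript, and the sequence of the second is shown because it reads another stretch of that transcript:
Mfap2 second probe: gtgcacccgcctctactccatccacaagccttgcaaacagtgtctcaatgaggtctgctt

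As Fbn1 and Mfap2 were each other's nearest member, the stretch before the outermost annotated start of each gene was read from RefSeq (GRCm38.p6) and searched on both strands for a GC box (GGGCGG), which is shown in capitals. For Fbn1 the stretch was chr2:125506486-125506688 (minus strand) and for Mfap2 chr4:141010174-141010423 (plus strand):
Fbn1 upstream: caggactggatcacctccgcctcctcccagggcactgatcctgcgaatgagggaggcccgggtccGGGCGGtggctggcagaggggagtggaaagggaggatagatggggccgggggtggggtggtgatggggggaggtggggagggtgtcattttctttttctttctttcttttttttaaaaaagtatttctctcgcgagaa
Mfap2 upstream: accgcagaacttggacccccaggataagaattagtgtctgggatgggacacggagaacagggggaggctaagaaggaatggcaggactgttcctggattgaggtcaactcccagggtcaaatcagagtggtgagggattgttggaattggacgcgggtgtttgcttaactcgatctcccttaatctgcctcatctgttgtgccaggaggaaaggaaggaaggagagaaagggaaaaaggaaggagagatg

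The Fbn1 stretch held 1 GC box and the Mfap2 stretch 0, but the entry of a second Mfap2 start held 2. Of the 12 entries of members 8 held at least 1, beside 35.7% of all 32851 promoter entries in the table. Entries of the same gene overlapped for Efemp2 and for Fbln1, so that the 12 are not independent. Eln had no entry among them. The entries run from 250 bases before to 50 bases after a start and so are longer than the stretches shown. The 12 entries belonged to 7 members, and in none of them was there a TATA box (TATAAA), an AP-1 motif (TGANTCA), a STAT motif (TTCNNNGAA) or a CArG box. In all entries these were found in 13.6%, 7.81%, 8.3% and 1.63%. A match of letters is a description and does not show a bound site.

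Mfap5, which encodes MAGP-2, and Emilin1 were steadier. Mfap5 lay between 7.08 and 7.24 in DMSO, 7.21 and 7.35 in rapamycin, 6.84 and 7.65 in BA+DMSO, and 7.17 and 7.53 in BA+rapamycin. Its differences were 0.12 for the challenge, 0.044 for rapamycin under challenge, 0.13 for rapamycin alone and 0.027 for the challenge under rapamycin, with adjusted p values of 0.723 or above. The interval of the challenge difference was -0.34 to 0.57. Emilin1 lay between 0.39 and 0.60 in DMSO, 0.27 and 0.45 in rapamycin, 0.25 and 1.23 in BA+DMSO, and 0.28 and 0.63 in BA+rapamycin. The groups of Emilin1 overlapped for the challenge, and its difference of 0.31 had an adjusted p of 0.38. For both genes BA+DMSO replicate 2 was again the lowest of its group. Fbn2, the fibrillin made mainly during development, had 2 probes, which were well above background on 1 and 4 of the 12 arrays. It was not tested, and no level is given.

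Efemp2 encodes fibulin-4, which links lysyl oxidase to the elastin precursor. It read 6.05, 6.12 and 5.91 in DMSO, 5.72, 5.90 and 5.89 in rapamycin, 6.41, 6.19 and 6.66 in BA+DMSO, and 6.54, 6.37 and 6.34 in BA+rapamycin. All challenged arrays lay above all unchallenged arrays, by small amounts. The challenge difference was 0.39 (95% interval 0.029 to 0.76, adjusted p = 0.116). Under rapamycin it was 0.58 (SE 0.17, 95% interval 0.22 to 0.94, adjusted p = 0.0184), a rise of 1.49-fold. Within the slide that held 3 groups this difference was 0.52 and was not called (adjusted p = 0.153). With quantile normalization it was 0.37 and likewise not called, and 10 of 30 alternatives lost this call.

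Fbln5 encodes fibulin-5, which binds the elastin precursor and the cell surface. Its brighter probe read 7.11, 7.21 and 6.87 in DMSO, between 6.95 and 7.11 in rapamycin, 7.06, 6.30 and 7.17 in BA+DMSO, and 5.37, 5.63 and 6.00 in BA+rapamycin. The BA+rapamycin arrays lay below all other 9 arrays, and BA+DMSO replicate 2 was the nearest to them. The challenge alone gave a difference of -0.22 (95% interval -0.76 to 0.32, adjusted p = 0.556). The challenge under rapamycin gave -1.35 (SE 0.25, 95% interval -1.89 to -0.81, adjusted p = 0.0026), a fall of 2.55-fold. Within the slide that held 3 groups the difference was -1.36 and called (adjusted p = 0.04). Rapamycin under challenge gave -1.18 (95% interval -1.72 to -0.64, adjusted p = 0.0692), just outside the call. Of 30 alternatives 7 called this difference and 23 did not, with adjusted p values up to 0.612. With the date in the sample titles as a random block, chosen after seeing the data, it was -1.29 and called (adjusted p = 0.0326).

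A second Fbln5 probe was much dimmer and was well above background on 11 of the 12 arrays. It read -1.69, -2.01 and -2.02 in DMSO, -1.94, -1.51 and -2.32 in rapamycin, -1.42, -1.54 and -1.32 in BA+DMSO, and -2.55, -2.26 and -1.64 in BA+rapamycin. All BA+rapamycin arrays again lay below all BA+DMSO arrays, but they overlapped the rapamycin arrays. The difference under challenge was -0.72 (adjusted p = 0.19), and the challenge under rapamycin gave -0.23 (adjusted p = 0.496). The probes thus had the same direction in these comparisons and differed in size, and only the brighter one was called. For the challenge itself they differed in direction, with 0.48 for the dimmer probe (adjusted p = 0.214), and neither was called. With array brightness as a covariate, the difference of the brighter probe for the challenge under rapamycin was -0.66 and was not called (adjusted p = 0.268). Brightness was 74.62 to 109.3 on the BA+rapamycin arrays and 257.4 to 337.3 on the rapamycin arrays, and its part in the result was not tested further.

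**Figure D2:**
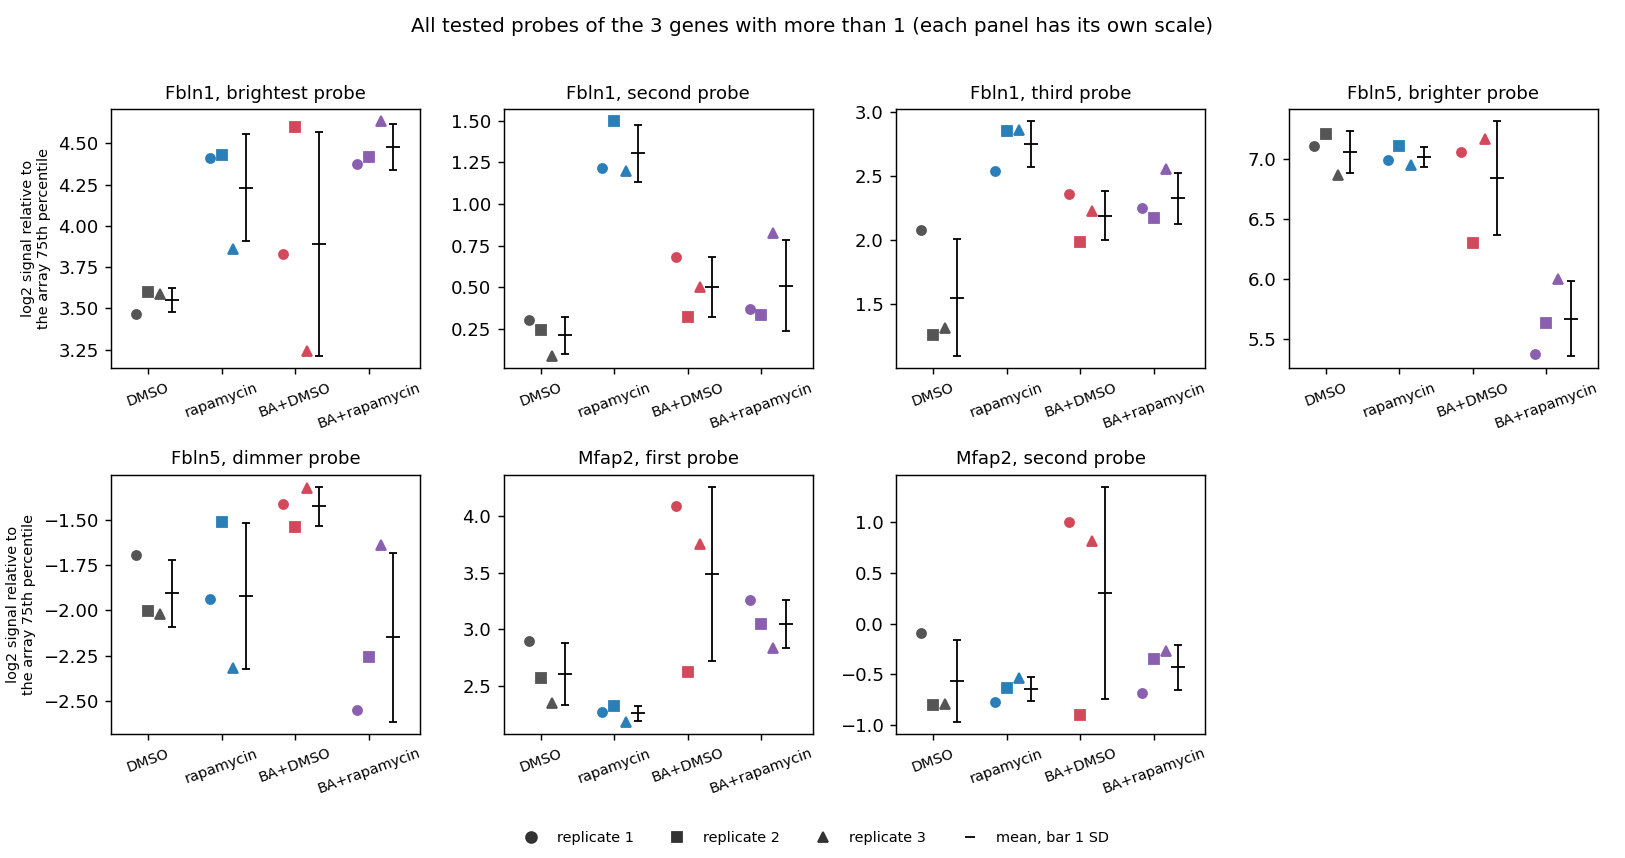
Level on each array for all tested probes of Fbln1 (3 probes), Fbln5 (2) and Mfap2 (2), as log2 signal relative to the array's 75th percentile; symbols mark replicates and bars the mean with 1 SD (n = 3), and each panel has its own scale. All 3 Fbln1 probes are higher in rapamycin than in DMSO, and Mfap2 is split within BA+DMSO by both of its probes.

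For rapamycin alone, limma called 0 of 9 members and 1 of 27801 probes (0.0036%), with Fbln1 the 1 member at an unadjusted p under 0.05. Of all tested probes, 1187 were under that value. Fbln1 encodes fibulin-1, which is found in elastic fibres and basement membranes and is spliced into forms with different ends. Its 3 probes lay on chromosome 15. The brightest read 3.47, 3.60 and 3.59 in DMSO, 4.41, 4.43 and 3.86 in rapamycin, 3.83, 4.60 and 3.24 in BA+DMSO, and 4.37, 4.42 and 4.63 in BA+rapamycin. Every rapamycin array lay above every DMSO array, by 0.68 on average (95% interval 0.027 to 1.34, adjusted p = 1).

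The other Fbln1 probes, with starts 33623 bases apart, belong to different transcript models in the array's annotation, and their sequences are shown for that reason. The second probe, at chr15:85115550-85115609, has the same transcript model as the brightest, and the third, at chr15:85081927-85081986, has another (mm9, both plus strand). Capitals mark a TGA at the last codon of the first reading frame of the second probe, and whether it is the stop codon of the protein was not tested:
Fbln1 second probe: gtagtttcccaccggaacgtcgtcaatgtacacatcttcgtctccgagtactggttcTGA
Fbln1 probe of the other transcript model: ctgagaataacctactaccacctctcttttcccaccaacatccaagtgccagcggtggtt

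The second probe read 0.30, 0.24 and 0.084 in DMSO, 1.22, 1.50 and 1.20 in rapamycin, 0.68, 0.32 and 0.50 in BA+DMSO, and 0.37, 0.33 and 0.83 in BA+rapamycin. The third probe read 2.08, 1.26 and 1.31 in DMSO, 2.54, 2.85 and 2.86 in rapamycin, 2.36, 1.98 and 2.23 in BA+DMSO, and 2.25, 2.17 and 2.55 in BA+rapamycin. By both, as by the first probe, every rapamycin array was above every DMSO array, and this held for rapamycin replicate 1, which shared the slide of the DMSO arrays. The differences were 1.09 (95% interval 0.68 to 1.50, adjusted p = 0.358) and 1.20 (95% interval 0.68 to 1.71, adjusted p = 0.409). None of the 3 was called in a comparison in which 1 probe of the whole array was. The second probe was lower in BA+rapamycin than in rapamycin by a called difference of -0.79 (adjusted p = 0.00805), whereas the brightest probe, of the same transcript model, gave 0.24 (adjusted p = 0.524) and the third probe -0.42 (adjusted p = 0.163). Fbln1 therefore had no single direction for the challenge under rapamycin.

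**Figure D3:**
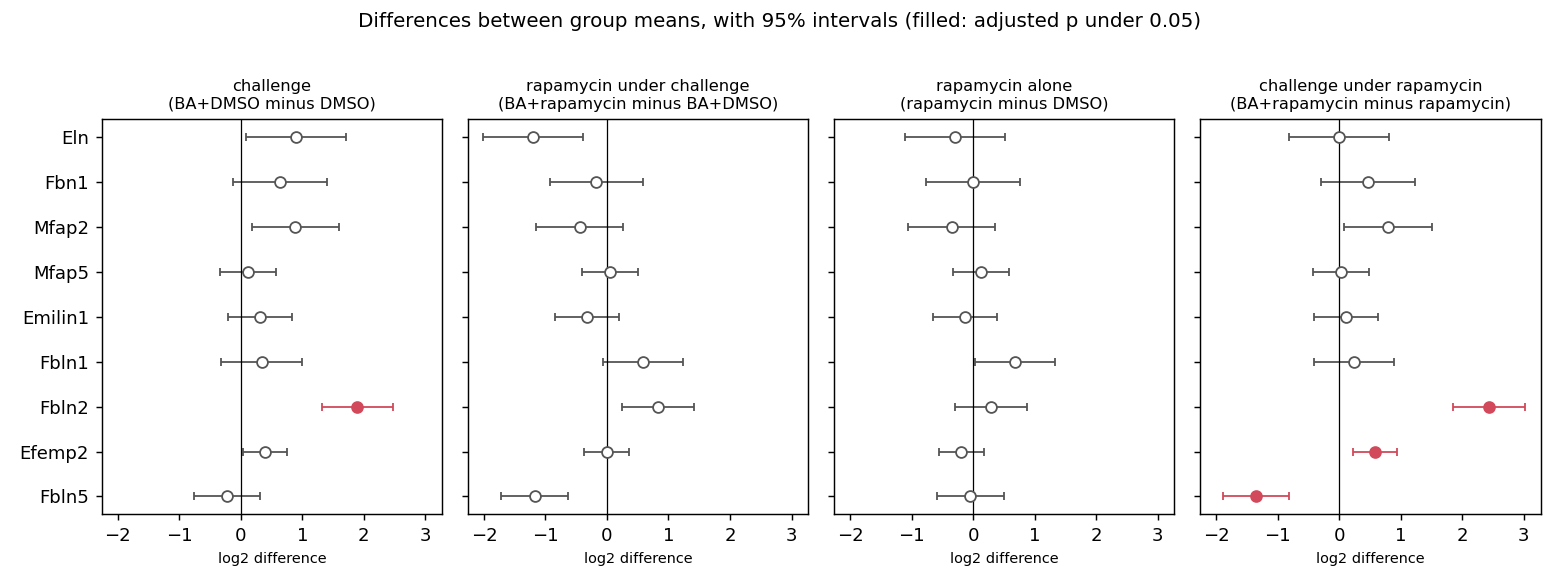
Difference between group means (log2) with its 95% interval from limma for the 9 tested elastic fibre genes in 4 comparisons; filled points have an adjusted p under 0.05. Filled points are Fbln2 for the challenge, and Fbln2, Efemp2 and Fbln5 for the challenge under rapamycin; no member is filled in the other comparisons.

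In the comparison of BA+rapamycin with rapamycin, 3 of 9 members were called, with Fbln2 and Efemp2 higher and Fbln5 lower. The background was 41.7% of all tested probes, 18.9% higher and 22.9% lower, and the members did not exceed it. In the comparison of BA+rapamycin with BA+DMSO, limma called 0 of 9 members and 0.281% of all tested probes (0.0719% higher and 0.209% lower), while Eln, Fbln2 and Fbln5 were at an unadjusted p under 0.05. Of the 27801 tested probes, 5585 were under that value there. Groups did not overlap for 2 members in that comparison, Fbln2 above and Fbln5 below, beside 14.5% of all tested probes. For the challenge they did not overlap for Fbln2 and Efemp2, beside 34.6% of probes. By the dimmer Fbln5 probe and the second Fbln1 probe, all BA+DMSO arrays also lay above all DMSO arrays. For rapamycin alone they did not overlap for Fbln1 above and for Eln, Efemp2 and Mfap2 below, beside 21.5%, but by the second Mfap2 probe these groups overlapped (difference -0.081). For the challenge under rapamycin they did not overlap for 5 members, Fbn1, Fbln2, Efemp2 and Mfap2 above and Fbln5 below, beside 65.9%. By the other probes of Mfap2 and Fbln5 these groups overlapped, and by the second Fbln1 probe BA+rapamycin lay below rapamycin. The interaction, which tests whether the difference made by rapamycin was itself different under challenge, had 0 calls among members and among all probes (0%), with Fbln5 the 1 member at an unadjusted p under 0.05 by its brightest probe. The second and the third Fbln1 probes, at -1.08 (unadjusted p = 0.0017, adjusted p = 0.495) and -1.06 (unadjusted p = 0.00838, adjusted p = 0.685), were also under it. The smallest adjusted p of the interaction over all probes was 0.308, and 1702 probes had an unadjusted p under 0.05. These comparisons share groups of arrays, so that they are not independent of each other.

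The counts of members rested on BA+DMSO replicate 2. This array was the lowest of its group for 7 of 9 members (77.8%), the exceptions being Fbln1, for which it was the highest, and Fbln2, beside 42.0% of all tested probes. By the other 2 Fbln1 probes it was the lowest of its group. Without it, 6 members were called for the challenge, all higher, with 27.2% of all probes called. These were Eln (1.43, adjusted p = 0.00075), Fbn1 (1.15), Mfap2 (1.32), Emilin1 (0.60), Fbln2 (1.88) and Efemp2 (0.51). For rapamycin under challenge 7 members were then called, with 39.9% of all probes called. Lower in BA+rapamycin were Eln (-1.74, adjusted p = 0.00135), Fbn1 (-0.68), Mfap2 (-0.88), Emilin1 (-0.62) and Fbln5 (-1.45). Higher were Fbln1 by its brightest probe (0.94) and Fbln2 (0.85). The second and the third Fbln1 probes gave -0.081 (adjusted p = 0.736) and 0.031 (adjusted p = 0.928), so that the Fbln1 call rested on 1 of 3 probes. The dimmer Fbln5 probe gave -0.78 and was not called (adjusted p = 0.0561), whereas the second Mfap2 probe was called in both comparisons, with 1.46 and -1.33. Of the challenge under rapamycin 5 members were called without the array, Fbn1 and Mfap2 in addition to the 3 above, with 56.9% of all probes called, but the second Mfap2 probe was not (0.21, adjusted p = 0.394). For rapamycin alone 0 members were called without it, with 0.0144% of all probes. For the interaction Eln (-1.44, adjusted p = 0.0256) and Fbln5 (-1.41, adjusted p = 0.029) were called, with 11% of all probes called. The second probes of Fbln1 (-1.17, adjusted p = 0.0335) and Mfap2 (-1.25, adjusted p = 0.0404) were called too, while the brighter probes of these genes were not. The fits without the array treat the remaining pair of BA+DMSO arrays as varying like the other groups.

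**Figure D4:**
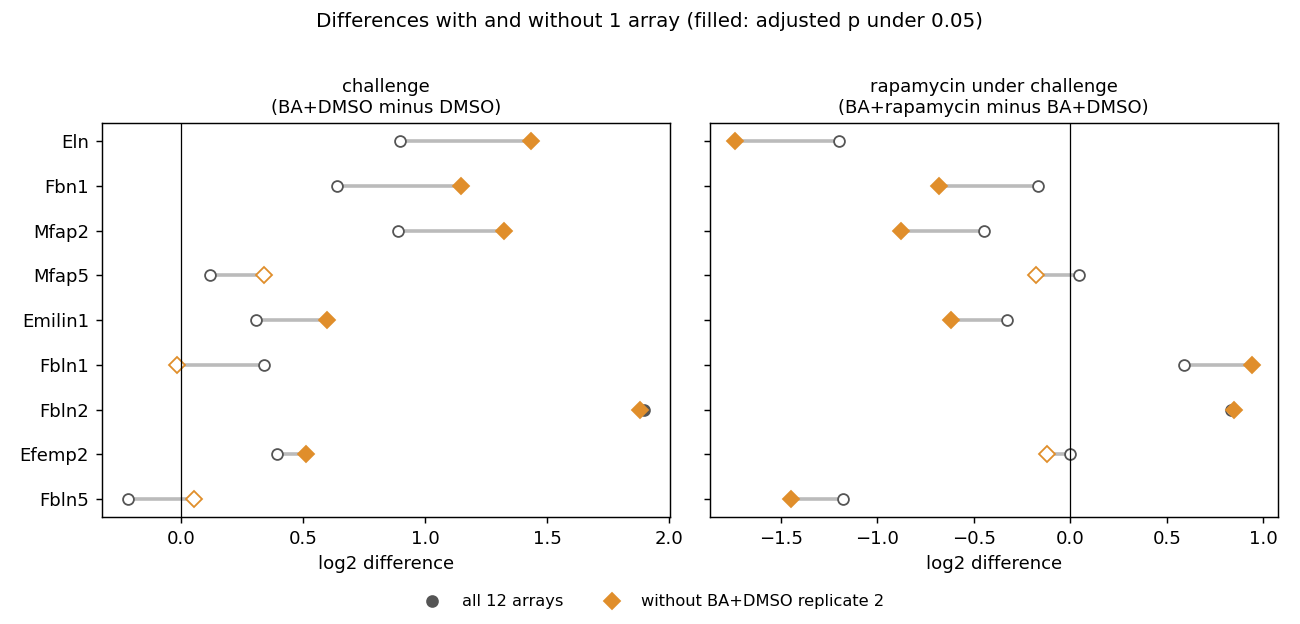
Log2 difference of the 9 tested elastic fibre genes for the challenge and for rapamycin under challenge, with all 12 arrays (circles) and without BA+DMSO replicate 2 (diamonds); filled symbols have an adjusted p under 0.05. Eln moves from 0.90 to 1.43 and from -1.20 to -1.74, whereas Fbln2 stays at 1.90 and 1.88 in the first panel.

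The values of BA+DMSO replicate 2 that moved with these counts were its brightness and some of its marker lists. Its brightness of 78.07 lay in the range of the BA+rapamycin arrays, 74.62 to 109.3. Its summed level of the 10 contractile smooth muscle markers was 12.2, beside 11.3 and 11.4 on replicates 1 and 3 and 11.8 to 12.1 on the BA+rapamycin arrays. The summed level of 5 proliferation markers was 3.53 on it, beside 5.81 and 5.04 on the other BA+DMSO arrays and 3.42 to 3.76 on the BA+rapamycin arrays. In both lists each sum included every marker, and none of them was below background on all arrays. The summed level of 8 adipocyte markers was 7.55 on replicate 2 beside 6.35 and 5.48 on replicates 1 and 3, and that of 4 brown adipocyte markers was 4.61 beside 3.23 and 2.98. Lep in the first list and Elovl3 in the second were above background on no array. The summed level of 9 macrophage markers was 6.28 on replicate 2, beside 7.59 and 7.07. Fibroblast markers read 11.2, 11.2 and 10.5 on replicates 1, 2 and 3. Replicate 2 was the highest of its group for endothelial (7.93) and mesothelial (3.86) markers. It was the middle one for neutrophil (1.76) and striated muscle (5.33) markers, of which Cxcr2, Myh4 and Mylpf were above background on no array. The part of these values in the pattern of Eln, Fbn1 and Mfap2 was not tested. With array brightness as a covariate and all 12 arrays kept, 6 members were called for the challenge, beside 18.3% of all tested probes, with Eln at 1.76 (adjusted p = 0.00302). For rapamycin under challenge 0 were then called, beside 1.12% of probes, with Eln at -0.71. For the challenge under rapamycin, Eln was at 1.50 and called in that fit (adjusted p = 0.0357), beside 6.42% of probes. Of the challenged arrays, only BA+DMSO replicate 3 (246.4) reached the brightness of the unchallenged arrays, 221.5 to 337.3. That fit therefore cannot fully separate brightness from the challenge.

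Cell type markers also moved with the challenge, in which 9.65% of all tested probes were called higher and 10.8% lower. All 9 tested macrophage markers were called higher, and their summed level was 4.65 to 5.59 on DMSO, 6.28 to 7.59 on BA+DMSO and 6.78 to 6.83 on BA+rapamycin arrays. Of 10 fibroblast markers 3 were called higher and 0 lower for the challenge, and the summed level was 10.1 to 10.5 on DMSO and 10.5 to 11.2 on BA+DMSO arrays. Of the 10 contractile markers 2 were called lower, and the summed level was 11.5 to 11.6 on DMSO and 11.3 to 12.2 on BA+DMSO arrays. Of 5 mesothelial markers 4 were called higher, with a median difference of 2.83, and the summed level was -0.87 to 1.74 on DMSO and 2.74 to 3.86 on BA+DMSO arrays. Of 8 endothelial markers 2 were called higher, and of 5 proliferation markers all, with a median difference of 4.68. Called higher were also 1 of 3 tested neutrophil markers (median 1.74) and, of 3 tested brown adipocyte markers, Ucp1 (median 2.01, with Cidea lower). The 6 tested adipocyte markers were all higher (median 1.44), and 0 were called. Top2a, whose difference is the proliferation median, Cdk1 and Ucp1 were well above background on 0 DMSO arrays, so that their differences are not exact. For rapamycin under challenge 0 markers of these lists were called, beside 0.281% of all tested probes. Medians there were -1.83 for the mesothelial list and -1.80 for the 3 tested brown adipocyte markers. The 5 proliferation markers were all lower there too, with a median of -1.40. For the challenge under rapamycin, 18.9% of all tested probes were called higher and 22.9% lower. Of the contractile markers 1, Tagln (1.05), was called higher there and 4 lower (median difference -0.66). Their summed level, which the brightest markers dominate, was 11.4 to 11.6 on rapamycin and 11.8 to 12.1 on BA+rapamycin arrays. Of the macrophage markers 5 were called higher and 0 lower. Of the fibroblast markers 3 were called higher and 1 lower there, and of the endothelial markers 2 each way. All 5 proliferation markers were called higher (median 4.23), and 0 mesothelial markers were called. The proliferation median is that of Ccnb1, which 1 of the 3 rapamycin arrays held well above background. Cidea of the brown adipocyte list (-2.61) and Acta1 of the striated muscle list (-1.49) were called lower. The medians of these lists were 0.553 and 0.033, with 2 of 3 and 3 of 5 tested markers higher. The part of these lists in the rise of Fbln2 or the fall of Fbln5, or in the levels of the other members, was not tested.

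Over all gene names, the 5 whose arrays were most like those of Eln, by the same root mean square measure over 12 arrays, were Dut (0.182), Ly96 (0.212), Cks1b (0.215), Phf11 (0.216) and Gorasp2 (0.224). The nearest to Fbln2, the member with the largest called challenge difference, were Il3ra (0.239), Ltbp2 (0.24), Cyth4 (0.241), Mapk11 (0.248) and AI662270 (0.276). The nearest member to Eln was Emilin1 at 0.405, and 335 other probes were nearer to Eln. The nearest member to Fbln2 was Fbln1 at 1.24, and that to Fbln5 was Emilin1 at 0.76.

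Other genes linked to elastic fibres or microfibrils by function, family or name were read from a list of 33, of which 31 were tested. For the challenge 4 were called higher and 4 lower, beside 9.65% and 10.8% of all tested probes. Higher were Loxl4, a lysyl oxidase family member, by 1.70, Adamtsl2, a microfibril-binding protein, by 1.61, Ltbp2, which binds fibrillin, by 1.58 (adjusted p = 0.00165), and Emilin2 by 1.34. Lower were Ltbp4, which takes part in elastin assembly with fibulin-5, at -1.05 (adjusted p = 0.0162), Mfap1a, known also as a splicing factor, at -0.90, the proteoglycan gene Vcan at -0.86, and Adamtsl5 at -0.72. A second probe of Vcan was called the other way, at 0.69 (adjusted p = 0.037), and so was one of Adamtsl5, at 1.22 (adjusted p = 0.0033), so that the direction of these genes depended on the probe. Of 2 further Ltbp4 probes, 1 was called lower too, at -1.19 (adjusted p = 0.0128), and the other gave 0.12 (adjusted p = 0.734). The list split both ways, and its median of 0.074 was near that of all tested probes, -0.045.

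For the challenge under rapamycin 4 genes of this list were called higher and 5 lower, beside 18.9% and 22.9% of all tested probes. Ltbp2 had the largest rise, of 2.51 (5.68-fold, adjusted p = 0.000115), followed by Loxl4 at 1.43, Loxl2 at 1.39 and Adamts17 at 0.70. Adamts17 passed the background on 2 of the 3 arrays of its brighter group. The largest falls were those of Vcan at -1.26, Fbln7 at -1.24, Mfap1a at -0.92 and Ltbp4 at -0.82. The second Vcan probe was again called higher, at 0.64 (adjusted p = 0.0302). Limma called 0 of the 31 for rapamycin under challenge and 0 for rapamycin alone, with 1 and 2 at an unadjusted p under 0.05. For the interaction it called 0 as well, with 3 at an unadjusted p under 0.05. Lox, the lysyl oxidase that BAPN blocks, is outside the rule for naming and was chosen after its values were seen. It differed by 1.12 for the challenge (adjusted p = 0.0905) and by 1.08 under rapamycin (adjusted p = 0.0655) by its brighter probe, which was not called. A second probe, well above background on all 12 arrays, was called in both, with 1.18 (adjusted p = 0.0152) and 1.32 (adjusted p = 0.00512), so that the call depended on the probe.

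Enzymes that degrade elastin, and their inhibitors, made a list of 16 genes, of which 13 were tested. Mmp7, Mmp9 and Mmp12 were too dim. For the challenge 5 were called higher and 1 lower. Timp1, an inhibitor of metalloproteinases, rose by 4.05 (16.6-fold, adjusted p = 0.000117). Ctss, an elastin-degrading cathepsin of macrophages, rose by 2.30, Mmp14, a membrane-bound metalloproteinase that activates Mmp2, by 1.21, and Mmp2 by 0.91 (adjusted p = 0.0434). Timp4, another inhibitor, fell by 2.39, and 1 array of each challenged group did not hold it well above background.

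For the challenge under rapamycin 4 of the 13 were called higher and 3 lower. Timp1 rose by 4.55 (23.4-fold), Ctss by 2.00, Mmp14 by 1.70 and Elane, neutrophil elastase, by 0.99. Timp4 fell by 2.51, Cela1, an elastase, by 1.32 and Cst3, an inhibitor of cathepsins, by 1.06 (adjusted p = 0.00225). Only 1 of the BA+rapamycin arrays held Cela1 well above background. Limma called 0 of the 13 for rapamycin under challenge, with 3 at an unadjusted p under 0.05, and 0 for rapamycin alone, with 0. It called 0 for the interaction, with 3 at an unadjusted p under 0.05. The background shares of these comparisons are those given for the members.

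**Figure D5:**
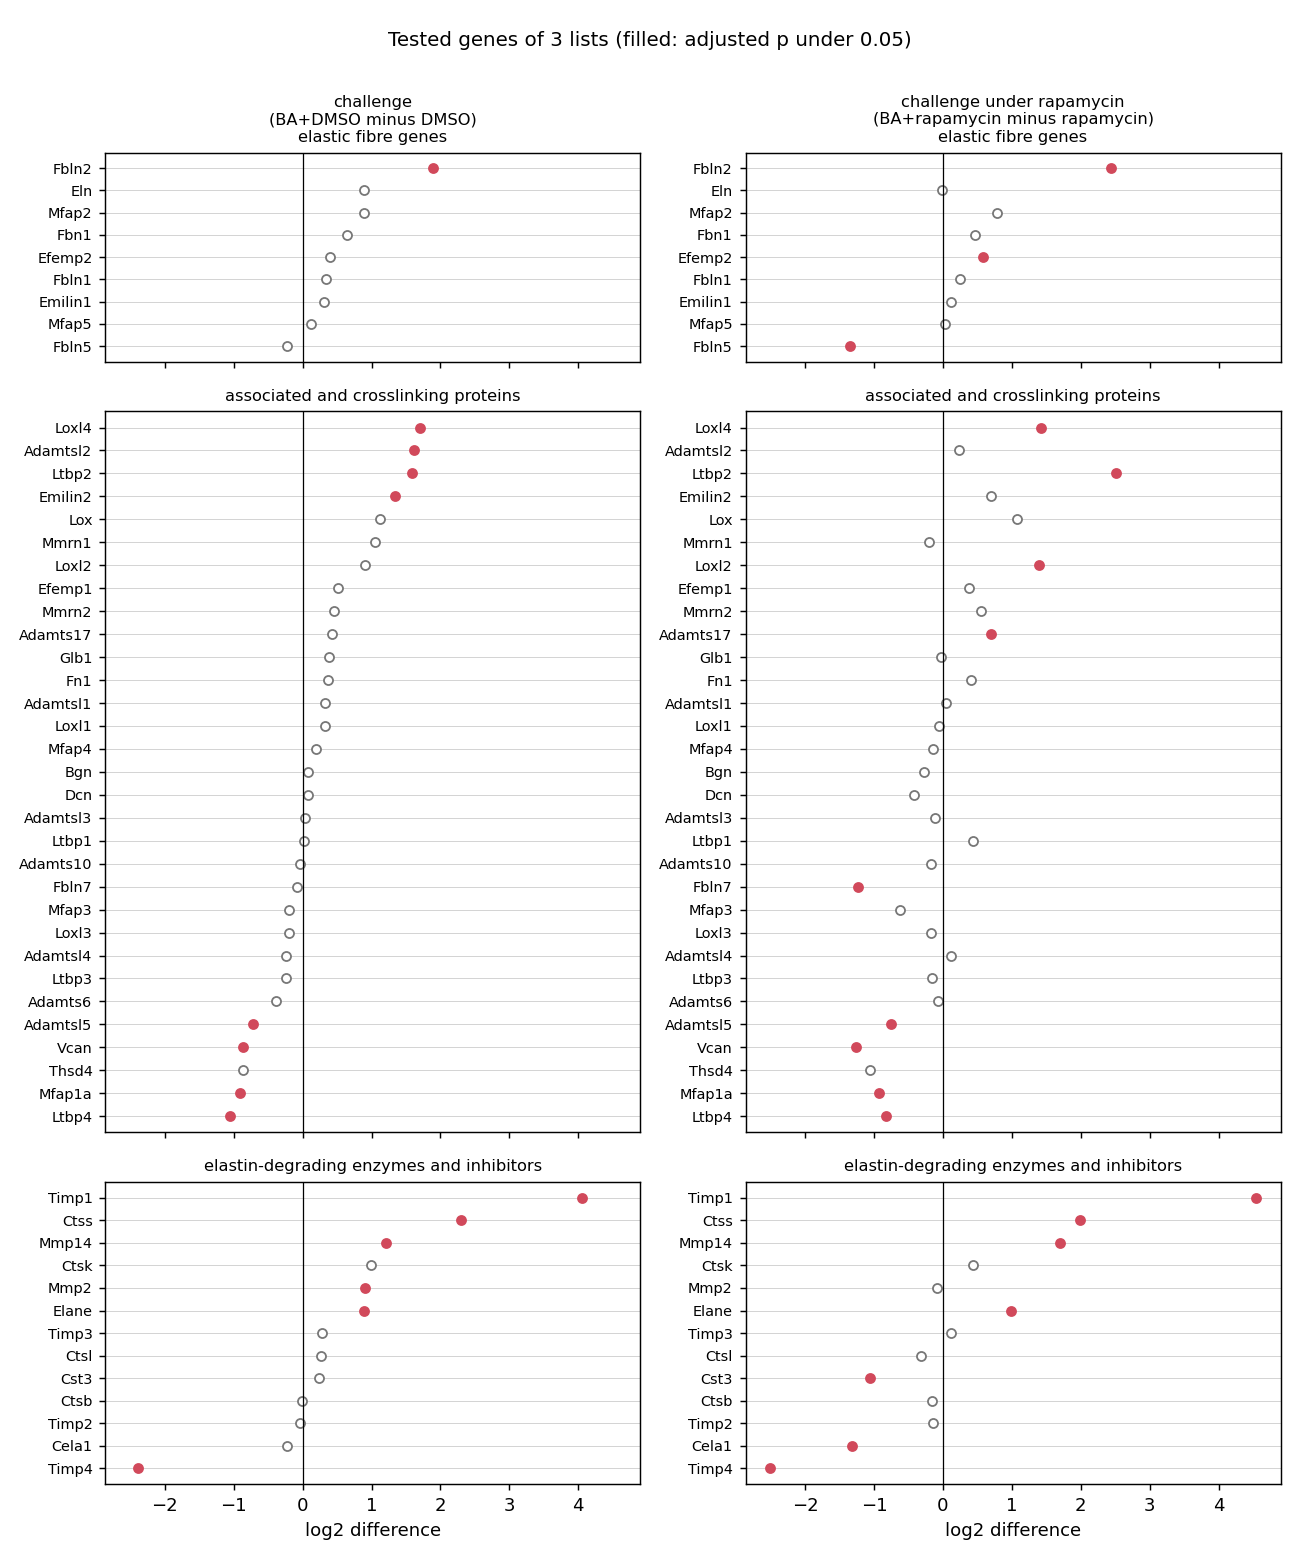
Log2 difference for the challenge (left) and the challenge under rapamycin (right) of the tested elastic fibre genes, of 31 associated and crosslinking proteins and of 13 elastin-degrading enzymes and inhibitors, in the same gene order in both columns; filled points have an adjusted p under 0.05. Timp1 has the largest rise in both columns, 4.05 and 4.55, and Ltbp2 lies next to Fbln2 in size in the right column.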

How the data were processed

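Per the labels, total RNA of each mouse aorta was labelled with Cy3 and hybridised to a 1-colour Agilent mouse array. Each file deposited by the authors is the scanner output of 1 array, in which the processed signal is a linear, background-corrected intensity that carries no normalization across arrays. The file headers name Feature Extraction 10.7.1.1 and the submitters' processing notes 9.5.1.1. The matrix deposited by the authors holds intensity on a linear scale after normalization between arrays by a method not given in the sources used here, and it served as an alternative only.

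Outlier-flagged spots were removed, log2 signals were averaged by probe and the 75th percentile of each array was subtracted. Tests were limited to probes that 1 group or more held well above background on each of its 3 arrays, as judged by a share of 0.5 or more of a probe's spots. All 12 arrays entered 1 limma 3.58.1 fit of 4 group means (R 4.3.3), two-sided, adjusted by Benjamini-Hochberg within each comparison over 27801 probes and called at an adjusted p under 0.05. The fit was tested on simulated data with the same spread in all groups and no slide or brightness difference. That test therefore does not cover these features of the arrays. Tables and figures were made with Python 3.11.15, pandas 2.3.3 and matplotlib 3.10.9. No spot was saturated, and the number of arrays limits the precision. P values measure the spread between these mice.

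A gene stands by its tested probe with the highest mean, and all other probes of the members were read too. All members are named whatever their values. Of the list of 33 associated genes and of that of 16 elastin-degrading enzymes and inhibitors, the called genes with the largest rise and fall, up to 4 each way, are named for each comparison. The members and the lists were chosen with earlier results of these data known. The members' RefSeq accessions matched the same symbols in the RefSeq gene list, apart from the probe designed on a transcript of another database. Alternatives were other scalings and background corrections, filters, probe summaries, slide or the date in the titles as a block, brightness as a covariate, array weights, the deposited matrix, the rule in the study's methods, which takes a p under 0.01, read here as unadjusted, with a 4-fold change, and each array left out.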

Additional observations from a re-analysis of the deposited data

How the results depend on the processing

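The counts of called members depended on the processing. For the challenge (1 with the reported settings) the count was 3 with the percentile taken over detected probes (21.3% of all probes), 2 with quantile normalization (19.7%), cyclic loess (21.6%) or the deposited matrix (19.6%), 4 with slide as a random block (36.9%), 6 with brightness as a covariate (18.3%), and 0 with slide as a fixed block (0.054%), with array weights, whose fit did not converge (0.403%), or by the study's rule (2.51%). For rapamycin under challenge (0) it was 1 with the percentile over detected probes (1.7%), quantile normalization (0.802%), cyclic loess (0.396%), the deposited matrix (0.799%), a variance trend with robust fitting (0.719%) or the title date as a random block (1.65%). The called gene was Fbln5 each time. For rapamycin alone (0) it was 1 with array weights (5.44%), Fbln1. For the challenge under rapamycin (3) it was 5 with only the compared groups (56.4%) or with array weights (65.7%), 4 with the percentile over detected probes (41.4%) or cyclic loess (40.9%), 2 with slide as a fixed block (28.5%), within the slide with 3 groups (11.8%), with normexp correction (62.4%) or with the replicate block (10.1%), and 1 by the study's rule (5.14%), Fbln2. With brightness as a covariate (6.42%) it was 3, but these were Eln, Fbln2 and Efemp2, all higher. Leaving out each array in turn gave 1 to 6, 0 to 7, 0 to 0, 2 to 5 and 0 to 2 for the challenge, rapamycin under challenge, rapamycin alone, the challenge under rapamycin and the interaction, and the upper values came without BA+DMSO replicate 2. Of 1071 values of single members under alternatives, 955 kept their direction and their side of the threshold, 15 lost a call, 43 gained one and 58 changed direction.

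Direction changed mainly for differences near 0, none of which was called except that of Eln for the challenge under rapamycin with brightness as a covariate (1.50, adjusted p = 0.0357). With quantile normalization Mfap5 was at -0.16, -0.23 and -0.43 for the challenge, rapamycin under challenge and the challenge under rapamycin, and Eln at 0.011 for the last. The deposited matrix gave -0.15, -0.22, -0.40 and 0.011 in the same order, and normexp background correction -0.16, -0.093 and -0.40 for Mfap5 and -0.18 for Fbln1 under the challenge with rapamycin. With cyclic loess Mfap5 was at -0.051 for rapamycin under challenge and -0.085 for the challenge under rapamycin, Eln at 0.019 for the latter and Fbn1 at -0.016 for rapamycin alone. The percentile over detected probes put Efemp2 at 0.14 for rapamycin under challenge and Eln at 0.18 for the challenge under rapamycin. Array weights put Fbn1 at -0.013 for rapamycin alone, and Eln at 0.035 and Mfap5 at -0.061 for the challenge under rapamycin. Both slide alternatives, the fixed block and the single slides, of which that with the DMSO arrays was chosen after seeing the data, put Fbn1 at -0.067 for rapamycin alone and Eln at 0.029 for the challenge under rapamycin. The slide with the DMSO arrays held 1 rapamycin array, which was assumed to vary like the DMSO arrays, and the fixed block joined the slides through that array alone. With brightness as a covariate Fbln1 was at -0.31 and Fbln5 at 0.18 for the challenge, Fbn1 at 0.17 and Efemp2 at 0.14 for rapamycin under challenge, Fbn1 at -0.11 for rapamycin alone and Fbln1 at -0.89 for the challenge under rapamycin. The mean of all probes of a gene put Fbln5 at 0.13 for the challenge and Fbln1 at -0.32 for the challenge under rapamycin. The cause of these changes was not tested.

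Leaving out each array in turn gave, for the challenge, -0.016 to 0.66 for Fbln1, -0.38 to 0.052 for Fbln5 and -0.071 to 0.34 for Mfap5. For rapamycin under challenge it gave -0.68 to 0.13 for Fbn1, -0.12 to 0.12 for Efemp2 and -0.18 to 0.23 for Mfap5. For rapamycin alone it gave -0.068 to 0.085 for Fbn1 and -0.14 to 0.027 for Fbln5. For the challenge under rapamycin the highest value of Eln was 0.046 and Mfap5 ran from -0.079 to 0.10.

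Titles of DMSO and rapamycin samples share the numbers 2 and 3, and the labels do not say what they mark. BA+rapamycin titles hold these numbers too, and DMSO replicate 1 and BA+rapamycin replicate 3 share both date and number. Deviations from the group means correlated at 0.17 and -0.355 for the DMSO and rapamycin pairs, so the numbers were not taken as pairing. With the numbers of these pairs alone as a replicate block the counts were 1, 0, 0, 2 and 0. Mfap5 was then at -0.029 for the challenge under rapamycin. Of the titles 10 hold a date, whose meaning the labels do not give, and 3 dates are each shared by arrays of different groups, 8 arrays in all. With the date as a random block, chosen after seeing the data (estimated correlation 0.496, the 2 undated BA+DMSO arrays each on their own), the counts were 1, 1, 0, 3 and 0. Efemp2 was then at 0.018 and Mfap5 at -0.075 for rapamycin under challenge, Fbln5 at 0.011 for rapamycin alone and Mfap5 at -0.093 for the challenge under rapamycin. The random slide block had an estimated correlation of -0.133.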
